A study of Mus musculus with 79 samples.

Results

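Bhlhe40 and Bhlhe41, which encode the DEC repressors, and Usp2, Ciart and Wee1, which are described as outputs of clock E-boxes, were followed through the day in muscle of 2 mouse knockouts. The 5 genes were chosen by name, and all 5 were measured in both knockouts, among 14253 genes in the RORA tables and 12952 in the PER2 tables. The study holds 79 RNA-seq libraries of muscle. RORA MKO and PER2 MKO mice carry a knockout of Rora or of Per2 in muscle only, and each was compared with its own CTRL mice, which the labels give as wild type (WT). Both genotypes of each set were sampled at zeitgeber time (ZT, hours after lights on) 0, 4, 8, 12, 16 and 20 h, with 3 or 4 mice per genotype and ZT (18 MKO and 18 CTRL libraries in the RORA set, 24 and 19 in the PER2 set). The driver of the deletion, the age of the mice, the muscle sampled and the light schedule were not given in the sources used here.

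The muscle clock runs on a feedback loop. The activators BMAL1 (gene Arntl) and CLOCK bind E-boxes, short DNA elements with the core letters CACGTG, and switch on their own repressors, among them the PER and CRY proteins. DEC1 (Bhlhe40) and DEC2 (Bhlhe41) are basic helix-loop-helix proteins that bind the same E-boxes and repress there. RORα and the REV-ERB proteins compete for another element, the RORE, through which RORα raises Arntl transcription. Ciart encodes CHRONO, a repressor that binds BMAL1. Usp2 encodes a ubiquitin-specific protease, an enzyme that takes ubiquitin off other proteins and so spares them from degradation. Wee1 encodes a kinase that holds back entry into mitosis, and its rhythm made it a textbook link between the clock and the cell cycle.

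The promoters of the 3 members with an entry in the promoter table used, Bhlhe41, Usp2 and Ciart, are shown for the element by which the group is named; those of Bhlhe40 and Wee1 were not analysed here. Each is the 250 bases before the transcription start in the RefSeq annotation of GRCm38.p6, read 5′ to 3′ on the strand of the gene, and capitals mark the E-box letters CACGTG. The Bhlhe41 window is chr6:145865421-145865670 (minus strand), that of Usp2 is chr9:44084670-44084919 (plus strand) and that of Ciart is chr3:95882229-95882478 (minus strand).
Bhlhe41: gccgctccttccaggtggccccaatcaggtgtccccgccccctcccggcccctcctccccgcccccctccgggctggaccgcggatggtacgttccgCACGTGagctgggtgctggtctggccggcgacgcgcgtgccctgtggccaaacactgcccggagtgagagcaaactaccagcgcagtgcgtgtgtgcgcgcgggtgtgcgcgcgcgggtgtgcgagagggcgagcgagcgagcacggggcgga
Usp2: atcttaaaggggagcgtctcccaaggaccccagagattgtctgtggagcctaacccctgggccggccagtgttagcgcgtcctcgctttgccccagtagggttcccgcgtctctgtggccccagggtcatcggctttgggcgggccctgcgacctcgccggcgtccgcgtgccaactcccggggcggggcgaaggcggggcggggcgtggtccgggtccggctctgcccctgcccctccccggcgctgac
Ciart: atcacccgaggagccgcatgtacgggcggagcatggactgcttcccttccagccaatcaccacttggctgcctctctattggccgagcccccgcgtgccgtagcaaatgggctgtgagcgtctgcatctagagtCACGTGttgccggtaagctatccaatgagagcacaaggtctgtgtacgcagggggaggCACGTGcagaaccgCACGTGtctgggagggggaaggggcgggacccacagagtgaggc

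Ciart held 3 E-boxes, at 116 to 111, 58 to 53 and 44 to 39 bases before the start. Bhlhe41 held 1, at 153 to 148 bases before the start, and Usp2 held 0. CACGTG reads the same on both strands. Among 32851 promoters of the same length, 6.02% held at least 1 copy and 20 (0.0609%) held at least 3. The related letters CACGTT, or AACGTG on the other strand, were in 3.85% of promoters, and the core AGGTCA that RORα binds, or TGACCT on the other strand, in 14.0%. Neither was in the 3 windows shown. These are matches of letters within 1 window and say nothing of binding. Of 10 other clock genes regulated through E-boxes, 9 had a promoter in the same table and 3 of these (Per1, Cry1 and Tef) held the E-box letters.

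The level of each gene was deposited once per set, as a mean over libraries that was identical in the tables of all 6 ZT, so no level by ZT or genotype and no spread can be given. Per length of the longest transcript, Usp2 stood highest in the RORA tables at 372 mean normalized counts per kb, followed by Bhlhe40 at 362, Bhlhe41 at 78.5, Ciart at 24.1 and Wee1 at 14.0. The PER2 tables gave the same order, from 33.0 CPM per kb, a depth-scaled count, for Usp2 and 29.6 for Bhlhe40 through 8.39 for Bhlhe41 to 2.41 for Ciart and 0.587 for Wee1. Usp2 and Bhlhe40 were close to each other in both sets, and whether neighbours in this order differ beyond their spread was not tested. Ciart (46.8 mean normalized counts) and Wee1 (47.8) were measured from far fewer reads than Usp2 (1438), and their PER2 fold changes had the widest errors.

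**Figure D1:**
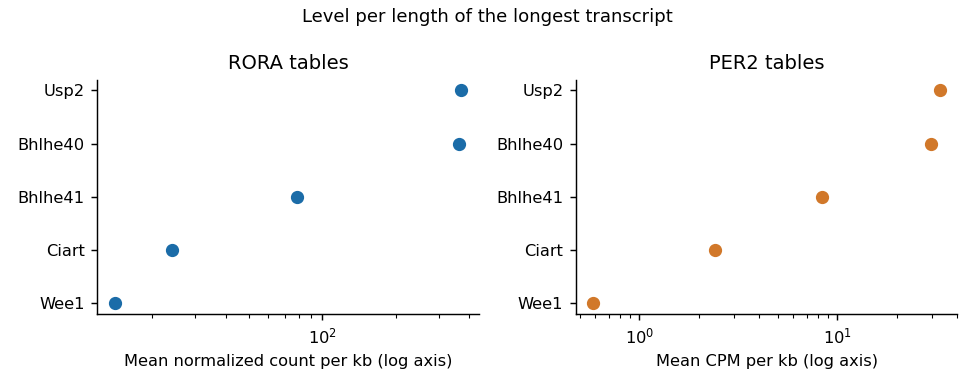
Mean level per kb of the longest transcript on log axes, in the RORA tables (left, normalized counts) and the PER2 tables (right, CPM), 1 point per gene and no spread deposited. Usp2 and Bhlhe40 lie highest and Wee1 lowest in both.

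Some values of the whole series bear on the fold changes of the 5 genes. Rora, the targeted gene of the RORA set, had a weighted mean log2 fold change of -1.78 ± 0.03 (SE) and was called at 6 of 6 ZT. This and later SE of weighted means come from the errors at each ZT and leave out the spread between ZT. Neither labels nor headers say which genotype the PER2 tables divide by, and Per2 itself was positive there at 0.37 ± 0.09, so PER2 results are given with the sign that was deposited, as positive or negative. In bulk muscle, fewer cells of a type and less RNA per cell cannot be told apart. Muscle fibre markers were abundant, such as Myh4, a fast myosin, at 792710 mean normalized counts in the RORA tables. All 8 endothelial markers rose in RORA MKO by the weighted mean (median 0.15), where 38.2% of all genes passed. There 4 of 7 Schwann cell markers changed with ZT, as 11.0% of all genes did (median -0.31 at ZT4 and 0.67 at ZT20). In PER2, 5 of 5 red blood cell genes were negative by the mean over ZT (median -1.35 at ZT4 and -1.01 at ZT12), where 21.6% of all genes passed. Transcript length with GC content took up 32.4% of the variance of PER2 log2 fold changes at ZT4 and 30.1% at ZT12. At the other ZT it took up 0.926% to 5.21%. These shares are for genes of at least 1 CPM, without the most extreme fold changes at each ZT. No listed marker that was measured had a level of 0. The part of these markers in the members' values was not tested, and PER2 means with the length and GC trend removed are given where they bear on a result.

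Bhlhe41 was the member that RORA MKO muscle lost most. At ZT0, ZT4, ZT8, ZT12, ZT16 and ZT20 in turn, the authors' deposited tables gave log2 fold changes (MKO over CTRL) of -1.53, -1.37, -0.96, -1.07, -1.18 and -1.40, each with an error of 0.07 or 0.08. All 6 values lay well below 0, with folds of 0.347 at ZT0 to 0.514 at ZT8. The authors' deposited adjusted p ran from 8.85e-91 at ZT0 to 1.24e-34 at ZT8, and Bhlhe41 passed 0.05 at all 6 ZT, as 4.69% of all genes did with a lower level. The inverse-variance weighted mean was -1.26 ± 0.03 (SE from the errors at the 6 ZT), a change of -58.2% that was -39.46 times this error and passed the test. Taking the spread between ZT as the error instead, limma gave an adjusted p of 1.59e-05. From the lowest value up, Bhlhe41 ranked 69 of 14253 genes by the weighted mean.

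The size of the Bhlhe41 fall changed with ZT. It was smallest at ZT8 and largest at ZT0, 0.57 apart on the log2 scale, and the values rose from ZT0 to ZT8 and then went down step by step to ZT20. Cochran's Q, which asks whether 6 values differ by more than their errors, gave an adjusted p of 1.40e-05, where 11.0% of genes passed. A cosine of 24 h also passed (adjusted p 3.19e-06), with an amplitude of 0.27 and its highest value at 10.9 h. Each ZT has its own mice, so time of day and differences between the mice sampled at a ZT cannot be told apart.

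Arntl, the gene of the activator BMAL1, had the opposite course. In the order of the 6 ZT, the authors' deposited tables gave -0.80, -1.21, -2.37, -2.65, -2.36 and -1.26. Arntl was lowest relative to CTRL from ZT8 to ZT16, and Bhlhe41 was least reduced at the same 3 ZT. Over the 6 ZT the log2 fold changes of Bhlhe41 and Arntl in RORA MKO had a Pearson r of -0.936, a description over 6 points in which both genes come from the same libraries. No other member's r with Arntl in the RORA tables was outside -0.332 to 0.131, and in the PER2 tables that of Bhlhe41 was -0.125.

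**Figure D2:**
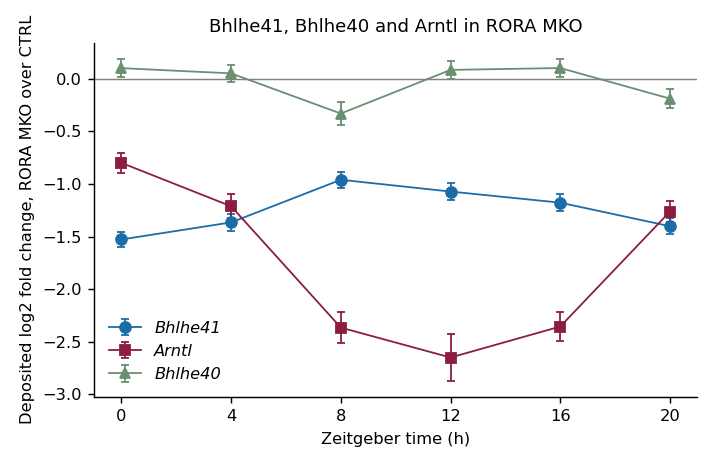
Deposited log2 fold change (RORA MKO over CTRL) of Bhlhe41, Bhlhe40 and Arntl against zeitgeber time in hours, with bars for the authors' error. Bhlhe41 is least reduced at ZT8 (-0.96), where Arntl is at -2.37, and most reduced at ZT0 (-1.53), where Arntl is at -0.80.

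Bhlhe40, the paralog of Bhlhe41, did not fall with it. In the same order of ZT, its log2 fold changes in the authors' deposited RORA tables were 0.10, 0.05, -0.33, 0.08, 0.10 and -0.19, with errors of 0.08 to 0.11. The values at 4 ZT lay within 0.10 of 0, and those at ZT8 and ZT20 stood below. Bhlhe40 passed the authors' deposited adjusted p at ZT8 (0.000657, a change of -20.5%), where 27.8% of genes passed, and at ZT20 (0.0243, a change of -12.3%), where 32.2% did. Its weighted mean was -0.01 ± 0.04 (adjusted p 0.950, inverse-variance weighted mean).

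The Bhlhe40 values differed between ZT by Cochran's Q (adjusted p 0.0339). The call was lost without ZT8 (0.406) or ZT20 (0.104), and a 24 h cosine did not pass (adjusted p 1.000). At ZT8 and ZT20, the ZT at which Bhlhe40 was lower, the median of the endothelial markers was at its highest in the RORA tables (0.28 and 0.23, and 0.03 to 0.15 at the other ZT), and that of the Schwann cell markers was 0.17 and 0.67 (at most 0.02 elsewhere). The red blood cell median was also highest at these ZT (0.36 and 0.29, and at most 0.20 elsewhere), and the white adipocyte median was 0.03 and 0.44, with -0.75 at ZT0. For the other lists the medians at ZT8 and ZT20 were 0.00 and -0.07 (muscle fibres), -0.01 and 0.02 (fibroblasts) and 0.08 and 0.06 (satellite cells). Those of macrophages and leukocytes were 0.03 and 0.11, with their highest value at ZT4 (0.14). Whether these markers have a part in the Bhlhe40 values was not tested. At every ZT Bhlhe41 lay below Bhlhe40 in RORA MKO, with a difference of -0.63 at ZT8, where Bhlhe41 was least and Bhlhe40 most reduced, and of -1.63 to -1.16 at the other ZT.

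Usp2 rose slightly in RORA MKO. From ZT0 to ZT20 the authors' deposited tables gave log2 fold changes of 0.14, 0.01, 0.11, 0.09, 0.26 and 0.10, with errors of 0.04 or 0.05. All 6 values were above 0, the highest at ZT16 and the lowest at ZT4. Usp2 passed the authors' deposited adjusted p at ZT0 (0.00591), ZT8 (0.0417) and ZT16 (1.26e-06, a rise of 19.4%), times at which 28.1%, 27.8% and 20.7% of all genes passed. The weighted mean was 0.11 ± 0.02 (SE, 6 ZT), a fold of 1.08 with an adjusted p of 7.08e-08 by the inverse-variance weighted mean. With the spread between ZT as the error, limma gave an adjusted p of 0.0252. By size, 22.7% of all genes had a larger mean than Usp2. Cochran's Q did not pass (adjusted p 0.196).

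Wee1 was higher in RORA MKO at 1 ZT. From ZT0 to ZT20 its log2 fold changes in the authors' deposited tables were 0.18, 0.22, 0.41, 0.02, -0.02 and -0.03, with errors of 0.12 to 0.15 at the first 3 ZT and 0.08 or 0.09 at the others. The values from ZT0 to ZT8 all lay above those from ZT12 to ZT20. At ZT8 the authors' deposited adjusted p was 0.000593 and the rise 32.5%, where 27.8% of all genes passed. The authors' deposited adjusted p was 0.0502 at ZT4 and 0.0700 at ZT0. The weighted mean over all 6 ZT was 0.06 ± 0.04 and did not pass (adjusted p 0.263). It gives more weight to the ZT with smaller errors, and the plain mean was 0.13. Stouffer's sum of the deposited p-values passed (adjusted p 0.00239), as it did for 7519 of 14253 genes, against 5449 by the weighted mean.

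Averaged separately, Wee1 stood at 0.25 ± 0.08 over ZT0, ZT4 and ZT8 and at -0.01 ± 0.05 over ZT12, ZT16 and ZT20. This split was chosen after the values were seen. The difference of 0.27 ± 0.09 had an adjusted p of 0.0837 over all genes and did not pass, nor did Cochran's Q (0.298, but 0.0369 on z values from the deposited p).

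Ciart, with the 3 E-boxes shown above, passed at 0 ZT in RORA MKO by the authors' deposited adjusted p, with 2 ZT at an unadjusted p under 0.05. By the adjusted p, 29.0% of all genes passed at ZT4 and 22.1% at ZT12. The share of all genes at an unadjusted p under 0.05 was not counted. From ZT0 to ZT20 the authors' deposited tables gave 0.02, 0.16, 0.00, 0.19, 0.03 and -0.04 on the log2 scale, with errors of 0.09 to 0.13. ZT4 and ZT12 were the highest values, and the adjusted p at ZT12 in the authors' deposited table was 0.0542. The weighted mean was 0.05 ± 0.05 (adjusted p 0.467 by the inverse-variance weighted mean, 0.0831 by Stouffer's sum).

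Counted over all members, 12 of the 30 pairs of gene and ZT passed in the RORA tables, 8 lower and 4 higher, beside 26.6% of the pairs of all genes. Without Bhlhe41 it was 6 of 24. By the mean over ZT, Bhlhe41 fell and Usp2 rose, and the other 3 members did not pass, where 38.2% of all genes passed.

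**Figure D3:**
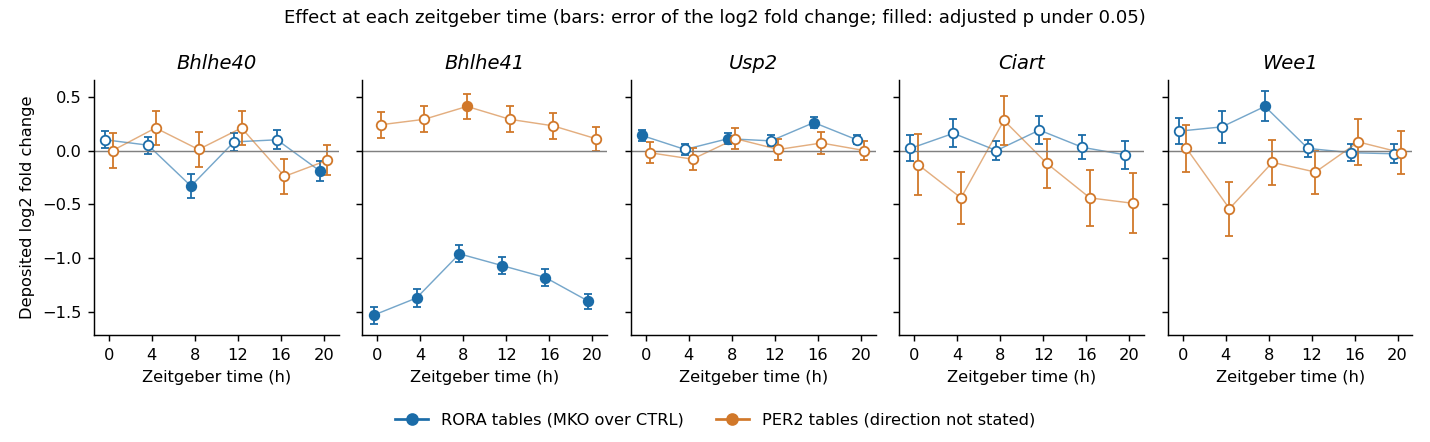
Deposited log2 fold change of the 5 genes against zeitgeber time in hours, in the RORA tables (blue, MKO over CTRL) and the PER2 tables (orange, direction not stated), with bars for the error and filled points where the deposited adjusted p was under 0.05. Bhlhe41 lies between -1.53 and -0.96 in RORA and between 0.11 and 0.41 in PER2, and the other 4 genes stay between -0.54 and 0.41.

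In the PER2 tables Bhlhe41 was again the member that moved, by less and with a positive sign. In the order of the 6 ZT its log2 fold changes in the authors' deposited tables were 0.24, 0.29, 0.41, 0.29, 0.23 and 0.11, with derived errors of 0.11 or 0.12. All 6 values were positive, the highest at ZT8 and the lowest at ZT20. In the authors' deposited tables it passed at ZT8 (adjusted p 0.0366), and 4 ZT had an unadjusted p under 0.05. By the adjusted p, 1.78% of all genes passed at ZT8, 12.2% at ZT4, 3.34% at ZT12, 2.70% at ZT0, 1.52% at ZT20 and 0.811% at ZT16. The share of all genes at an unadjusted p under 0.05 was not counted, so the 4 ZT have no share beside them. The weighted mean was 0.26 ± 0.05 (SE, 6 ZT), a fold of 1.20, and Stouffer's sum gave an adjusted p of 1.46e-06, where 21.6% of genes passed. With the trend on length and GC content removed the mean was 0.23 (adjusted p 2.32e-05 by Stouffer's sum), and without ZT4 and ZT12 it was 0.24 (0.000668). Taking the spread between ZT as the error, limma gave an adjusted p of 0.0120. A change with ZT was not called by Cochran's Q (adjusted p 0.912), a test that 0.0463% of all genes passed in PER2.

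Averaged over ZT, the other DEC gene was near 0 in the PER2 tables, with single values of both signs. From ZT0 to ZT20 Bhlhe40 stood at 0.00, 0.21, 0.01, 0.21, -0.24 and -0.09 in the authors' deposited tables, with derived errors of 0.14 to 0.16. The 2 highest values were those of ZT4 and ZT12 and the lowest that of ZT16. The weighted mean was 0.01 ± 0.06 (adjusted p 0.897 by Stouffer's sum), with a 95% interval at ZT16 of -0.54 to 0.07 from the derived error.

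None of the 3 other members passed in the PER2 tables. Usp2 had the narrowest range, at -0.02, -0.08, 0.11, 0.01, 0.07 and 0.00 from ZT0 to ZT20 in the authors' deposited tables, with derived errors of 0.09 or 0.10 and a weighted mean of 0.02 ± 0.04. Ciart, listed there under its older symbol Gm129, had the widest range, at -0.13, -0.44, 0.28, -0.12, -0.44 and -0.49 in the authors' deposited tables, with derived errors of 0.23 to 0.28. It was negative at 5 of 6 ZT, with ZT8 as the exception. Its weighted mean was -0.20 ± 0.10 (adjusted p 0.138 by Stouffer's sum), or -0.32 without ZT8 (0.0343) and -0.13 with the length and GC trend removed (0.346).

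Wee1 stood at 0.02, -0.54, -0.11, -0.20, 0.08 and -0.02 from ZT0 to ZT20 in the authors' deposited PER2 tables, with derived errors of 0.20 to 0.25. ZT4 was apart from the other values. There the unadjusted p in the authors' deposited table was 0.0281 and the adjusted p 0.119. The weighted mean was -0.11 ± 0.09 (adjusted p 0.351 by Stouffer's sum) and -0.01 without ZT4 and ZT12. In all, 1 of 30 pairs of member and ZT passed in PER2, beside 3.73% of the pairs of all genes. Without Bhlhe41, 0 of 24 passed the authors' deposited adjusted p, and 1 had an unadjusted p under 0.05. Cochran's Q called 0 of 5 members there (0.0463% of all genes), with 0 at an unadjusted p under 0.05 and 0 by a 24 h cosine.

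The 2 knockouts differed for Bhlhe41. The RORA mean of -1.26 less the PER2 mean of 0.26 was -1.52, with a 95% interval of the difference of -1.63 to -1.40 and an adjusted p of 1.34e-151, where 39.9% of the 12050 shared genes passed and 19.3% did so with RORA below PER2. Bhlhe41 was lower in the RORA tables than in the PER2 tables at all 6 ZT. If the sign of the PER2 tables is turned over, the difference is -1.00 (-1.11 to -0.89, adjusted p 1.12e-65, 19.1% of genes) and RORA is still the lower at all 6 ZT. Thus the fall in RORA MKO exceeded any fall in PER2 MKO whichever genotype the PER2 tables divide by.

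For the other 4 members the difference between knockouts did not pass with the PER2 sign as deposited. The intervals hold for 1 direction of the PER2 tables each and take the deposited RORA sizes as they are. RORA minus PER2 was -0.02 for Bhlhe40 (95% interval -0.16 to 0.12, adjusted p 0.859), and with the PER2 sign turned 0.01 (-0.13 to 0.15, adjusted p 0.962). For Usp2 it was 0.10 (0.01 to 0.19, adjusted p 0.0667), and with the PER2 sign turned 0.13 (0.04 to 0.22, adjusted p 0.0249), which passed. For Ciart it was 0.25 (0.03 to 0.47, adjusted p 0.0675), and with the sign turned -0.15 (-0.37 to 0.08, adjusted p 0.422). For Wee1 it was 0.17 (-0.02 to 0.36, adjusted p 0.145), and with the sign turned -0.05 (-0.24 to 0.14, adjusted p 0.796). The adjusted p-values are Benjamini-Hochberg values over the shared genes for the test on the 2 weighted means.

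Of 10 other clock genes with E-boxes, 6 fell in RORA MKO, 1 rose and 3 did not pass by the weighted mean, where 38.2% of all genes passed, with a median log2 fold change of -0.26 beside 0.00 over all genes. The repressors Cry1 (-0.68 ± 0.03) and Cry2 (-0.33 ± 0.02), the REV-ERB genes Nr1d1 (-0.69 ± 0.04) and Nr1d2 (-0.25 ± 0.02) and the output factors Dbp (-0.26 ± 0.05) and Hlf (-0.98 ± 0.03) fell. Tef (0.14 ± 0.01), a factor of the same family as Dbp, rose. The PER genes Per1 (0.04), Per2 (0.01) and Per3 (0.03) did not pass, and among the activators Arntl fell (-1.48 ± 0.05) while Clock and Npas2 did not pass. The mean of Bhlhe41 (-1.26) was lower than that of each of these genes except Arntl.

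In PER2, 3 of the 10 were positive (Per2 0.37 ± 0.09, Cry1 0.14 ± 0.04, Hlf 0.19 ± 0.05), 2 negative (Per3 -0.28 ± 0.08, Tef -0.14 ± 0.04) and 5 did not pass, where 21.6% of all genes passed, with a median of 0.01 beside -0.02 over all genes. Clock was positive at 0.23 ± 0.05. Bhlhe41 (0.26) lay within the range of these genes. Of the clock genes with a RORE, 3 of 5 fell and 0 rose in RORA MKO, where 38.2% of all genes passed. Those that fell were Arntl and Cry1, already named above, and Nfil3, a repressor of Dbp targets (-0.51 ± 0.07). In PER2, 3 of 4 were positive, Clock and Cry1, also named above, and Nfil3 (0.28 ± 0.08).

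**Figure D4:**
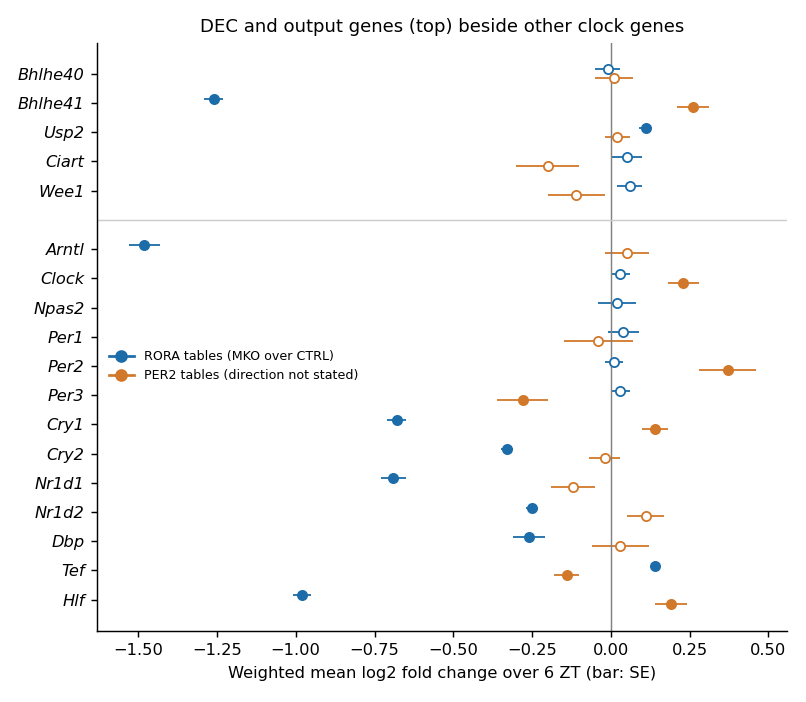
Weighted mean log2 fold change over 6 ZT with its SE for the 5 genes (top) and 13 other clock genes, in the RORA tables (blue) and the PER2 tables (orange, direction not stated), filled where the adjusted p was under 0.05. Npas2 was not measured in the PER2 tables and has a RORA value only. In RORA MKO Arntl (-1.48) lies lowest and Bhlhe41 (-1.26) next, whereas Bhlhe40 (-0.01) lies near 0. Without weights the means are further apart, at -1.77 for Arntl and -1.25 for Bhlhe41.

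The lists of genes related to the members are described by their counts, beside 38.2% of all genes past the RORA mean and 21.6% past the PER2 mean, and no test of a difference from these shares was run. Among 10 measured other helix-loop-helix repressors and inhibitors (HES, HEY, HELT and ID proteins), 2 rose in RORA MKO, Helt (0.87 ± 0.15) and Id3 (0.16 ± 0.04), 8 did not pass and 0 fell by the weighted mean. In PER2, 0 of 7 passed by Stouffer's sum. Of 10 myogenic helix-loop-helix factors and partners, 4 rose in RORA MKO, led by the MEF2 genes Mef2d (0.25 ± 0.01) and Mef2a (0.22 ± 0.01), and 3 were positive in PER2, among them Tcf12 (0.14 ± 0.04) and Mef2c (0.18 ± 0.05). Hypoxia is known to induce DEC1, and among 15 other hypoxia genes 6 rose and 4 fell in RORA MKO, with Ldha at -0.13 ± 0.01, Egln1 at 0.08 ± 0.01, P4ha1 at -0.21 ± 0.03 and, as the largest value, Egln3 at 0.40 ± 0.05. In PER2, 2 of the 15 were positive, P4ha1 (0.19 ± 0.04) and Hk2 (0.25 ± 0.07), and 13 did not pass by Stouffer's sum.

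Of 25 other ubiquitin-specific proteases, 4 rose, 5 fell and 16 did not pass in RORA MKO, where 38.2% of all genes passed, with the largest value for Usp20 (0.57 ± 0.03), followed by Usp28 (0.25 ± 0.02) and Usp19 (0.24 ± 0.01), so the mean of Usp2 (0.11) was below those of 3 relatives. In PER2, Usp20 was negative (-0.34 ± 0.04) and Usp25 positive (0.30 ± 0.05), among 6 positive and 1 negative of 25, where 21.6% of all genes passed. Of 6 genes whose proteins are described as USP2 substrates, Acvr1, a receptor of the activin and BMP family (-0.10 ± 0.03), fell and Ccnd1, cyclin D1 (0.23 ± 0.04), rose in RORA MKO. In PER2, Tfrc, the transferrin receptor (0.21 ± 0.06), and Acvr1 (0.14 ± 0.04) were positive. Of 12 partners of Wee1 in the switch into mitosis, 6 were measured in the RORA tables, where Cdc25a, a phosphatase that opposes Wee1, rose by 0.09 ± 0.03 and 5 did not pass, and 4 in PER2, where 0 passed by Stouffer's sum.

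The genes whose 12 log2 fold changes (6 RORA, 6 PER2) were most like those of each member were found by Pearson's r among 8957 genes. Those of Bhlhe41 were Atp13a5 (r = 0.989), Tceal5 (0.988) and Herc3 (0.988), which, like Bhlhe41, were negative in RORA and positive in PER2, so that most of r reflects the gap between the sets. Within the 6 RORA values alone r was 0.751 to 0.875, and within the 6 PER2 values 0.201 (Herc3) to 0.810. The nearest to Bhlhe40 were Eif2ak4 (0.850), Rabgap1 (0.840) and Fam199x (0.822), to Usp2 Ache (0.904), Gcsh (0.875) and Kbtbd4 (0.872), to Ciart Dtnbp1 (0.964), H1f4 (0.861) and Abra (0.858), and to Wee1 Slc25a42 (0.950), Ak3 (0.948) and Sdhaf4 (0.925). Within the RORA values alone Dtnbp1 and Abra had an r of 0.435 and 0.451 with Ciart. All genes share the same libraries, and the highest of many r values are given as a description.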

How the data were processed

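Stranded poly-A libraries of muscle RNA were sequenced, per the labels' protocols. Per the submitters' processing notes, the builds mm9 and GRCm39 and the tools STAR, DESeq2, R 4.1, Trimmomatic, MultiQC and bcl2fastq 2.20.0.422 were used, in roles not stated. How reads were counted, and whether by strand, is not given in the sources used here. The authors deposited 12 comparison tables, 1 per ZT and knockout, and no library's depth is known from them. Per the file headers, each RORA table gives the mean normalized count (a signal), the log2 fold change, its error and the p-value before and after adjustment. They compare knockout with wild type and list genes past 10 reads in 3 samples, per the labels. Fold over error was 0.779 times the z value of the deposited p-value (median). Shrunken fold changes give such ratios, so RORA sizes may be understated, unevenly between ZT. Per the file headers, each PER2 table gives the log2 fold change, the log2 CPM averaged over libraries, a score (likelihood ratio) and the p-value before and after adjustment. The PER2 error was derived, by dividing the absolute log2 fold change by the root of that score.

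Calls at a ZT used the deposited adjusted p under 0.05. Means over ZT were inverse-variance weighted, tested by that mean in RORA and by Stouffer's sum of the signed z in PER2. Change with ZT used Cochran's Q with 5 degrees of freedom, and the difference between knockouts used the 2 weighted means. All p-values were two-sided and Benjamini-Hochberg adjusted over all genes, and 95% intervals are normal. Levels per kb used the longest transcript in GENCODE M21, which also named 893 RORA genes, and 701 PER2 symbols were replaced by current ones in the RefSeq table. Length and GC content were known for 99.1% of PER2 genes, and the trend was removed from these. Its splines (5 degrees of freedom each) were fitted to genes of at least 1 CPM, without the most extreme fold changes at each ZT. The functions were tested on simulated data. Tools were Python 3.11.15, NumPy 2.4.6, pandas 2.3.3, SciPy 1.17.1, patsy 1.0.2, matplotlib 3.10.9 and limma 3.58.1 in R 4.3.3. The members, lists, tests and alternatives were chosen with earlier results of these data known, and the counts of the lists are descriptions, not independent support. Named genes are the members, clock activators and E-box clock genes that passed or are central to the loop, up to 2 members of each other list with the smallest adjusted p in each set, and 3 genes of like pattern per member (symbols that are not predicted names, at least 50 mean normalized counts and 1 CPM). The lists were counted without 2 genes that are not reported here. Nfil3, Usp28, Egln3, P4ha1 in the RORA set, Npas2 and Myh4 are outside this rule and were named after their values were seen.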

Additional observations from a re-analysis of the deposited data

Results flagged for a closer look

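Bhlhe41 and Bhlhe40 were flagged because their effects in RORA MKO differed between ZT (Cochran's Q over 6 ZT, adjusted p 1.40e-05 for Bhlhe41 and 0.0339 for Bhlhe40). Of all genes, 11.0% passed this test. The Bhlhe41 call held without any 1 ZT, whereas that of Bhlhe40 rested on ZT8 and ZT20. Bhlhe41 was also flagged because its effect differed between the knockouts, with RORA minus PER2 at -1.52 by the test on the 2 weighted means. That test was passed by 39.9% of the shared genes.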

How the results depend on the processing

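Leaving out each ZT in turn kept the Bhlhe41 mean between -1.32 and -1.20 in RORA and between 0.23 and 0.29 in PER2, and the Usp2 mean in RORA between 0.09 and 0.13, all past the threshold. The mean over ZT of Wee1 in RORA (0.06) did not pass as designed but did by Stouffer's sum (adjusted p 0.00239). The weighted mean of ZT0, ZT4 and ZT8 alone, a split chosen after seeing the data, gave 0.25 (adjusted p 0.00465). These alternatives called 7519 and 4372 of 14253 genes, against 5449 by the mean as designed. Bonferroni adjustment left 7 of the 12 RORA calls by ZT. The change of Bhlhe40 with ZT in RORA had an adjusted p of 1.000 by a cosine and 0.0293 to 0.406 with each ZT left out, and that of Wee1 0.0369 by Q on z values. The Ciart mean in PER2 ranged from -0.32 to -0.14 with each ZT left out, and passed without ZT8 alone. In place of the 1 PER2 call by ZT there were 0 at a threshold of 0.01 or with Bonferroni, and 2 at 0.1. The difference between knockouts passed for Usp2 with the PER2 sign turned (0.13) and without ZT8 (range 0.09 to 0.12 over ZT left out), and for Ciart without ZT8 (range 0.18 to 0.39). The cause of these shifts was not tested. The PER2 mean called 2792 genes, but 1092 by limma, 1379 without ZT4 and ZT12, 1590 over ZT0, ZT4 and ZT8 and 1066 over the other 3 ZT. Removing the median of all genes at each ZT changed no call of the mean over ZT among the members, in either set. No paired analysis was possible because the tables hold comparisons and not libraries, and within a set the library numbers in the labels are not shared between groups. For the same reason no library could be left out, and the filter on low values removed Ciart and Wee1 from the RORA tables, so it gave no value for them.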
